A study of Mus musculus with 12 samples.

Results

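The Tex genes described here are 8 mouse genes named for expression in the testis: Tex101, Tex11, Tex13, Tex14, Tex15, Tex16, Tex19.1 and Tex19.2. They were chosen by symbol, with their values in these data already known, from tables that list 22552 genes for the wild-type stages and 16394 genes for the Tet1 knockout. All 8 are listed in every table. Messenger RNA was sequenced from primordial germ cells (PGCs), which later give rise to oocytes and spermatozoa, of C57BL/6 mice in 12 libraries. Cells of genotype Tet1 -/- were taken at embryonic day 13.5 (Tet1-KO, 2 libraries) and set against wild-type cells of that day (WT, 3 libraries). Wild-type cells were also taken at day 9.5 (E9.5, 2 libraries), at day 11.5 (E11.5, 2 libraries) and at day 13.5 under the label E13.5m (3 libraries). The tables hold a further wild-type column, E13.5f, whose name no library title carries. Each group has 1 pooled value per gene in FPKM, fragments per kilobase of transcript scaled to the mapped total, so levels can be compared between genes but carry no spread between libraries, and the sequencing depth is unknown. The labels do not say whether the libraries of a group came from different embryos, and the spread behind the deposited p-values may therefore be technical.

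The shared name is not a shared family. Tex11 acts in chromosome pairing and crossover formation in meiosis, Tex14 is needed for the intercellular bridges that join dividing germ cells, and Tex15 acts in repair of meiotic DNA breaks and in silencing of transposons through small RNAs. Tex19.1 restrains retrotransposons in germ cells and binds the ubiquitin ligase Ubr2, and Tex19.2 is its neighbouring paralogue. Tex101 encodes a germ cell surface glycoprotein that sperm need for processing of Adam3. Germ cells migrate at E9.5, reach the gonad by E11.5, and at E13.5 enter meiosis in the ovary or stop dividing in the testis. TET1 oxidises methylated cytosine in DNA, and several germline genes are held silent by methylation of CpG sites at their promoters.

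Positions are given in the build mm9 of the tables. Tex11 (chrX:98033987-98254978), Tex16 (chrX:109207129-109240935) and Tex13 (chrX:137342846-137347972) are X-linked. Tex19.2 (chr11:120977529-120979991) and Tex19.1 (chr11:121007457-121009627) sit side by side, and Tex14 (chr11:87218567-87369325) lies elsewhere on chromosome 11. Tex101 is at chr7:25453031-25457069 and Tex15 at chr8:34681016-34696057. Tex13 is named Tex13b in RefSeq, which lists Tex13 as its synonym. In the GENCODE M21 basic annotation, made on another build and used only for gene structure, Tex14 has 31 exons and Tex11 has 30, against 3 in each of Tex19.1 and Tex19.2. No exon of the 8 genes overlaps an exon of another gene there. The longest Tex19.1 and Tex19.2 transcripts, of 1745 and 2046 bases, are identical at 70.8% of 1584 aligned columns. Of the 36-base stretches of Tex19.1, 4.97% also occur in Tex19.2, so reads from these stretches could have been assigned to either gene.

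RefSeq promoters on GRCm38.p6 were matched for 6 of the 8 genes. Tex11 and Tex15 had no entry. The 250 bases before the start are shown for Tex101 and Tex13, the members with the lowest Tet1-KO share of the WT level, and for the paralogues Tex19.1 and Tex19.2. Capitals mark CpG sites. Whether any of these sites is methylated or acted on by TET1 was not tested.
Tex101: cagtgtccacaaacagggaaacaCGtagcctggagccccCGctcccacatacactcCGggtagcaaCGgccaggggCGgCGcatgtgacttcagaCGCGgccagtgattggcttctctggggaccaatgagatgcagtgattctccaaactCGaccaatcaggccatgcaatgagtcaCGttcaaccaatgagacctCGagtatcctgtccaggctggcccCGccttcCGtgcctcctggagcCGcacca
Tex13: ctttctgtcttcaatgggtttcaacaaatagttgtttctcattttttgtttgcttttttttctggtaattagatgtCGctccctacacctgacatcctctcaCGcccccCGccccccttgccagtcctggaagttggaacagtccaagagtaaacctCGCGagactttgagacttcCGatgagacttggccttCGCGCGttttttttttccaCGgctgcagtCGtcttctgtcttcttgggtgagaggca
Tex19.1: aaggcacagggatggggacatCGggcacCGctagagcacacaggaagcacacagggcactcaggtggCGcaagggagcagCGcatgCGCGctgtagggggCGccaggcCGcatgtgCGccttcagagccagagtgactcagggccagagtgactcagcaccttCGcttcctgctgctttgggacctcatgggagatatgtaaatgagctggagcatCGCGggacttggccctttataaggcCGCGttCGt
Tex19.2: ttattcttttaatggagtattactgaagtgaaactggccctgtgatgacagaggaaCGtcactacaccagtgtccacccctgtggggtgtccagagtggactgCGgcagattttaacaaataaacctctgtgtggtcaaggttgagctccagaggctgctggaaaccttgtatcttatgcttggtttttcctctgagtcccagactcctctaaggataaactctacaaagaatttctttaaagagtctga
Their positions are chr7:24672051-24672300 (minus strand) for Tex101, chrX:140813434-140813683 (minus strand) for Tex13, chr11:121145893-121146142 (plus strand) for Tex19.1 and chr11:121118678-121118927 (minus strand) for Tex19.2. Tex19.1 has 15 CpG sites in this window and its paralogue Tex19.2 has 2. Tex14 has 17, Tex101 has 14, Tex13 has 11 and Tex16 has 0. Over 32851 promoters the median is 6, with quartiles of 2 and 16. The letters CCAAT, searched on both strands, occur 4 times in the Tex101 window, 1 time in that of Tex16 and not in the other 4 windows. They occur in 33.8% of all promoters, and 4 or more times in 0.840%. TATAAA, searched on both strands, occurs in Tex19.1 alone among the 6 windows, and in 12.4% of all promoters. CACGTG, which reads alike on both strands, is in none of the 6 windows and in 6.02% of all promoters. GGGCGG, searched on both strands, occurs once each in Tex101, Tex13 and Tex14, and in 32.7% of all promoters.

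**Figure D1:**
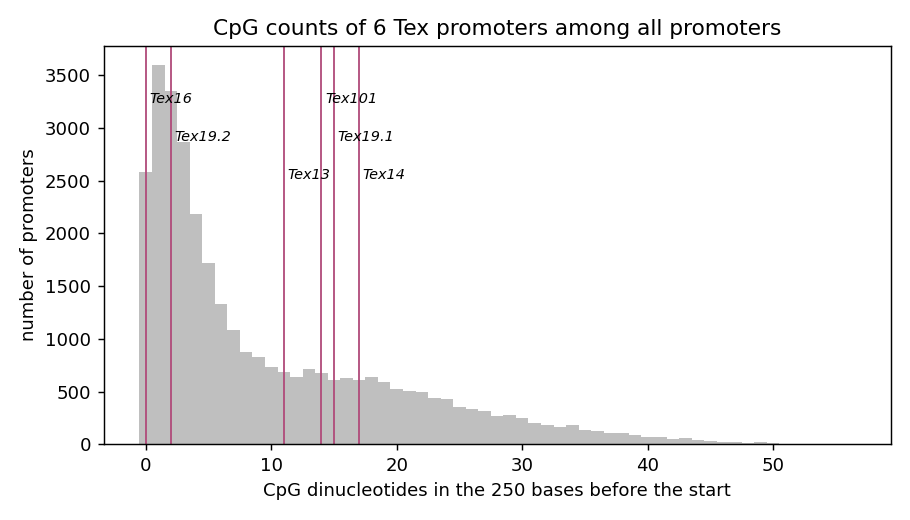
Number of RefSeq promoters (vertical axis) by count of CpG dinucleotides in the 250 bases before the start (horizontal axis), with vertical lines at the 6 matched Tex genes. Tex16 and Tex19.2 lie at the low end, with 0 and 2 sites, and the other 4 lie between 11 and 17.

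Germ cell markers were present in every group: all 6 germ cell markers (Ddx4, Dazl, Pou5f1, Dppa3, Kit and Dnd1) were listed at 1.95 FPKM or more, and their summed level ran from 2013 to 5115 FPKM. Gonadal soma markers summed to 1.62 to 7.81 FPKM and endothelium markers to 0.214 to 10.5 FPKM, with 8 and 5 genes in each list of the stage tables. Blood markers summed to 1729 FPKM at E9.5, carried by embryonic globins with Ptprc and Csf1r below 0.05, and to 20.0 FPKM at E11.5, and their part in the rises up to E11.5 was not tested. Tet1 itself was at 0.218 FPKM in Tet1-KO cells and 6.36 FPKM in WT cells. In bulk samples such as these, fewer cells of a type and less RNA per cell cannot be told apart.

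Levels of the 8 genes differed widely within a stage. For this the columns were put on the scale of the E13.5f table through the E11.5 values that the stage tables share, which differ between tables by constant factors of 0.870 and 0.976. Tex19.1 was the highest of the 8 in every group and made up 70.6% of their summed level at E9.5, 88.2% at E11.5, 77.8% in E13.5m and 63.6% in E13.5f. Without it the other 7 summed to 15.8 FPKM at E9.5, 61.7 FPKM at E11.5, 174 FPKM in E13.5m and to 460.3 FPKM in E13.5f. Tex101 was second at E9.5, at 9.10 FPKM, followed by Tex14 at 2.66 FPKM and Tex15 at 1.85 FPKM. Tex11, Tex13 and Tex19.2 lay close together there, at 0.846, 0.722 and 0.679 FPKM, and Tex16 was listed at 0. Since single levels carry no spread, neighbours in this order cannot be told apart.

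Taking 5 FPKM as a start, 2 genes had started by E9.5 (Tex19.1 and Tex101), 4 started at E11.5 (Tex11, Tex13, Tex14 and Tex19.2), 1 started at E13.5 (Tex15) and Tex16 did not reach it. The boundary and the scale bear on this order. At 1 FPKM, Tex14 and Tex15 also counted as started by E9.5 and Tex16 started at E13.5. At 10 FPKM, 4 genes (Tex13, Tex14, Tex15 and Tex19.2) started only at E13.5. In the unscaled E11.5 and E9.5 columns of the earliest table, Tex15 passed 5 FPKM at E11.5, at 5.05 FPKM. There Tex14 and Tex19.2 passed 10 FPKM at E11.5, at 10.6 and 10.4 FPKM, and Tex101 passed it at E9.5, at 10.5 FPKM.

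**Figure D2:**
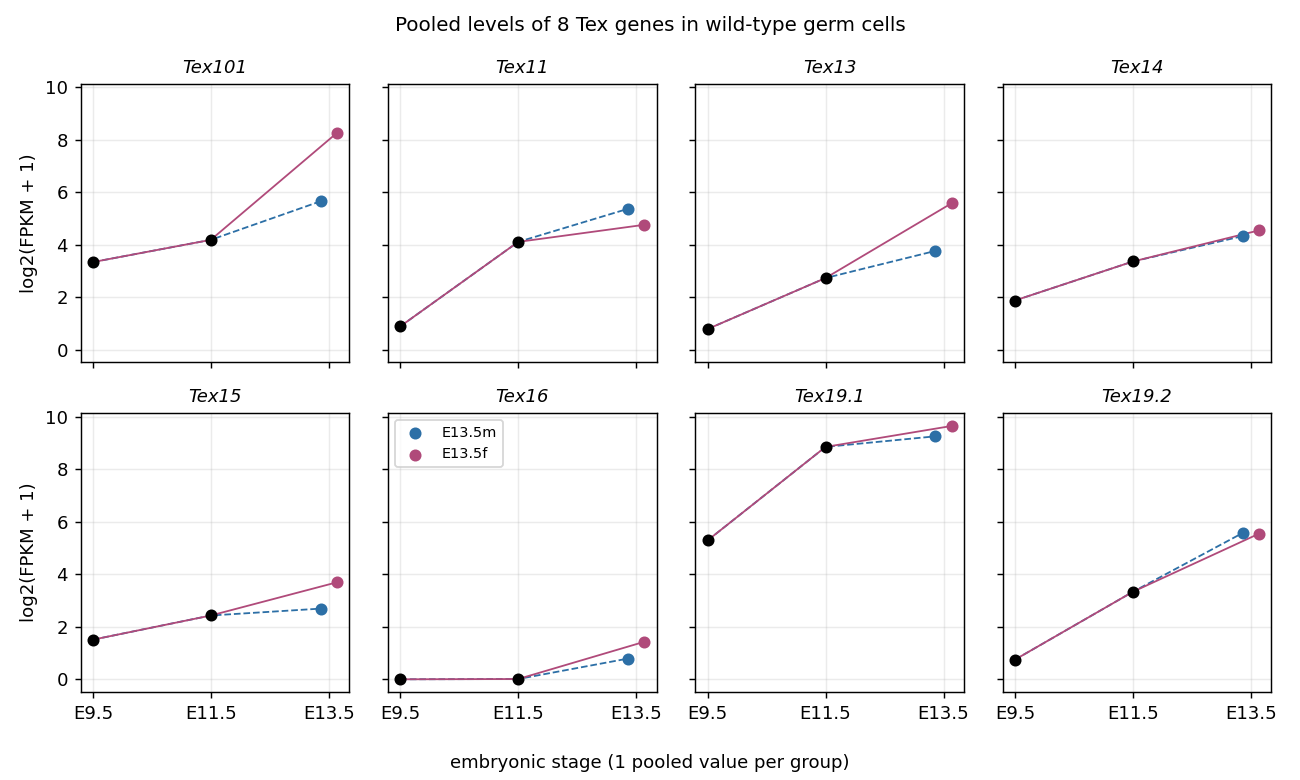
Level of each gene as log2(FPKM + 1) (vertical axis) in wild-type germ cells by embryonic stage (horizontal axis), on the scale of the E13.5f table, with 1 pooled value a point, a dashed line to E13.5m (blue) and a solid line to E13.5f (red). Tex19.1 climbs mainly before E11.5, while Tex101 and Tex13 climb most steeply towards E13.5f.

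Between E9.5 and E11.5, as cells move from migration to the gonad, 3 of the 7 members with a completed test rose: Tex19.1, Tex11 and Tex19.2. The authors called 3.71% of all tested genes higher in this table. Because all 4 tables were in view when the genes were chosen, these counts and the deposited q-values (p-values adjusted for the number of genes, with 0.05 as the authors' threshold) describe the members and test nothing further. All 7 lay above 0, with a median change of 2.03 in log2(FPKM + 1), against 0.29 for all tested genes. Over genes reaching 1 FPKM in both groups the median log2 ratio was 0.32, and changes are given as deposited unless said otherwise.

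Tex19.1 stood at 530.4 FPKM at E11.5 and 43.8 FPKM at E9.5, a log2 ratio of 3.60 ± 0.50 (SE implied by the deposited statistic). The authors' deposited table gives it q = 3.18e-10. Tex11 had 18.6 FPKM at E11.5, against 0.972 FPKM at E9.5, a log2 ratio of 4.26 ± 0.86, with q = 1.06e-04 in the authors' deposited table. That is the largest log2 ratio of the 7 tested members in this table, but it rests on a low E9.5 level. In log2(FPKM + 1) Tex19.1 changed most, by 3.57, against 3.32 for Tex11. Tex19.2 had 10.4 FPKM at E11.5 and 0.781 FPKM at E9.5, a log2 ratio of 3.74 ± 1.24, with q = 0.0468 in the authors' deposited table. That call lies at the threshold and ended at 0.01 and after centring on the table median. The paralogues therefore had log2 ratios within one another's error at levels far apart.

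The 4 others did not pass. Tex13 had 6.47 FPKM at E11.5 and 0.830 FPKM at E9.5, a log2 ratio of 2.96 ± 1.25, with q = 0.153 in the authors' deposited table. Tex14 had 10.6 and 3.06 FPKM at E11.5 and E9.5, and Tex15 had 5.05 and 2.12 FPKM. Tex101 changed least among the tested, with 19.7 FPKM at E11.5, 10.5 FPKM at E9.5 and a log2 ratio of 0.92 ± 0.79. Tex16, at 0.00835 FPKM at E11.5 and listed at 0 at E9.5, was not tested by the authors.

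From E11.5 to E13.5f, 5 of the 7 tested members rose, where the authors called 9.34% of tested genes higher: Tex101, Tex13, Tex15, Tex16 and Tex19.2. All 7 lay above 0, with a median change of 1.42 in log2(FPKM + 1), against 0.22 for all tested genes. Tex101 reached 306 FPKM in E13.5f, against 17.2 FPKM at E11.5, a 17.8-fold difference and a log2 ratio of 4.15 ± 0.54. The authors' deposited table gives q = 7.50e-12. Tex13 had 46.8 FPKM in E13.5f and 5.63 FPKM at E11.5, a log2 ratio of 3.06 ± 0.53, with q = 1.61e-06 in the authors' deposited table. Neither gene had passed between E9.5 and E11.5.

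Tex19.2 rose a second time, with 45.8 FPKM in E13.5f and 9.08 FPKM at E11.5, a log2 ratio of 2.34 ± 0.51. Its paralogue Tex19.1 did not pass, with 803 FPKM in E13.5f and 461 FPKM at E11.5, a log2 ratio of 0.80 ± 0.40 and q = 0.176 in the authors' deposited table. Tex15 had 12.0 FPKM in E13.5f and 4.39 FPKM at E11.5, a log2 ratio of 1.45 ± 0.50, with q = 0.0380 in the authors' deposited table. This call ended at the threshold of 0.01 and after centring on the table median of 0.19. Tex16 was called at a low level, 1.69 FPKM in E13.5f against 0.00726 FPKM at E11.5. Its log2 ratio of 7.87 ± 1.84 rests on a value near 0, and its change in log2(FPKM + 1) was 1.42. Tex14 had 22.4 FPKM in E13.5f and 9.26 FPKM at E11.5, with q = 0.0559 in the authors' deposited table. For Tex11 the authors' test failed, and its levels were 26.0 FPKM in E13.5f and 16.2 FPKM at E11.5.

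From E11.5 to E13.5m, 2 of the 7 tested members rose, where the authors called 2.94% of tested genes higher. Tex19.2 had 47.7 FPKM in E13.5m and 9.30 FPKM at E11.5, a log2 ratio of 2.36 ± 0.52, with q = 5.10e-04 in the authors' deposited table. Tex16 had 0.745 FPKM in E13.5m and 0.00744 FPKM at E11.5, with q = 0.0172 in the authors' deposited table. Under a threshold of 0.01, a minimum of 1 FPKM or a minimum log2 change of 1, Tex16 was not called and Tex19.2 was, where 1.52%, 3.52% and 2.75% of genes were called higher. Tex101 had 50.5 FPKM in E13.5m and 17.6 FPKM at E11.5, a log2 ratio of 1.52 ± 0.55, and did not pass, with q = 0.0879 in the authors' deposited table. Tex13 had 12.9 FPKM in E13.5m and 5.77 FPKM at E11.5, a log2 ratio of 1.16 ± 0.60. Tex14, with 19.5 FPKM in E13.5m and 9.48 FPKM at E11.5, and Tex15, with 5.60 FPKM in E13.5m and 4.50 FPKM at E11.5, did not pass. Neither did Tex19.1, with 625 FPKM in E13.5m and 473 FPKM at E11.5. Tex11, whose test failed here too, had 41.2 FPKM in E13.5m and 16.6 FPKM at E11.5. All 7 tested members lay above 0, with a median change of 0.97 in log2(FPKM + 1), against 0.05 for all tested genes.

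**Figure D3:**
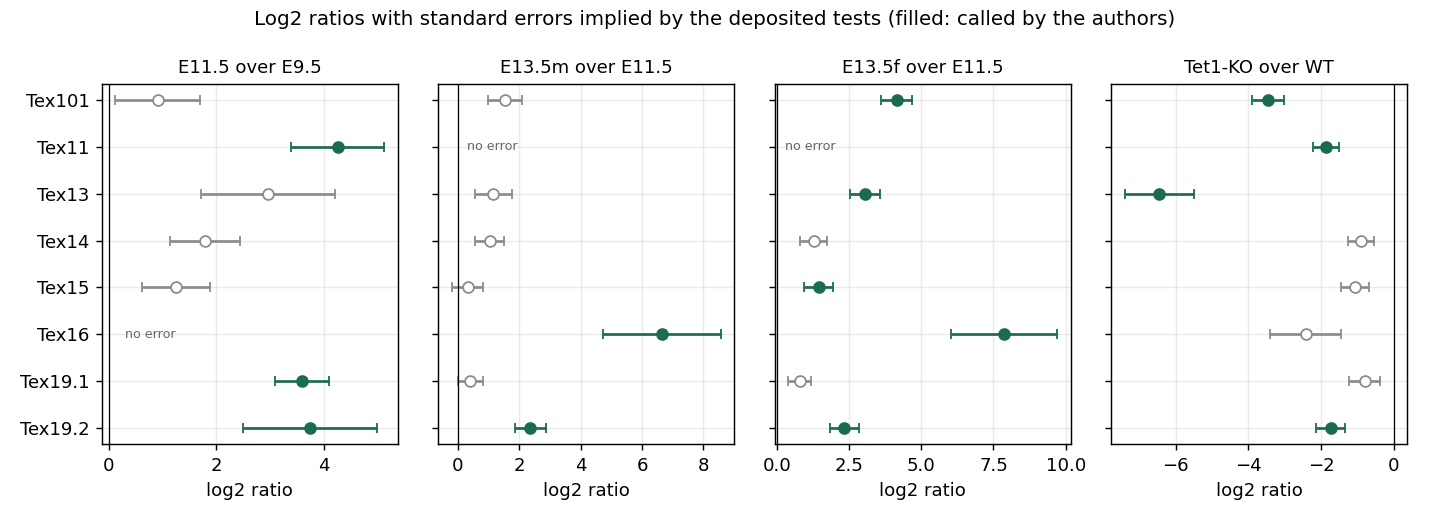
Log2 ratio of the 8 genes (horizontal axis) in the 4 deposited comparisons, later over earlier stage or Tet1-KO over WT, with bars for the standard error implied by the deposited test and filled points for the authors' calls. Every tested stage ratio lies to the right of 0 and all 8 Tet1-KO ratios lie to the left, with Tex13 the lowest at -6.46.

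No deposited table sets E13.5m against E13.5f. Both were tested against the same E11.5 libraries, and on the common scale the levels can be set side by side as a description, without a test. In E13.5m Tex101 had 49.3 FPKM, against 306 FPKM in E13.5f, a log2 difference of -2.63 ± 0.77. The SE here and below sums the variances of both deposited tests as if they were independent, although both hold the same E11.5 libraries, so it counts their error in full for each and is likely too wide. Tex13 had 12.6 FPKM in E13.5m, against 46.8 FPKM in E13.5f, a log2 difference of -1.90 ± 0.80. Tex15 had 5.46 FPKM in E13.5m, against 12.0 FPKM in E13.5f, a log2 difference of -1.13 ± 0.72. Tex19.2 lay nearest to even. It had 46.6 FPKM in E13.5m, against 45.8 FPKM in E13.5f, a log2 difference of 0.02 ± 0.72. Tex14 had -0.23 ± 0.67 and Tex19.1 had -0.40 ± 0.57. Tex16, with 0.727 FPKM in E13.5m, against 1.69 FPKM in E13.5f, had -1.22 ± 2.65. Tex11 was listed higher in E13.5m, with 40.2 FPKM against 26.0 FPKM in E13.5f, but it has no error because both tests failed. Gonadal soma markers summed to 7.81 FPKM in E13.5m, against 2.50 FPKM in E13.5f. Blood markers summed to 16.0 FPKM in E13.5m, against 1.61 FPKM in E13.5f, with Ptprc below 0.05 in both. The part of either list in these differences was not tested.

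**Figure D4:**
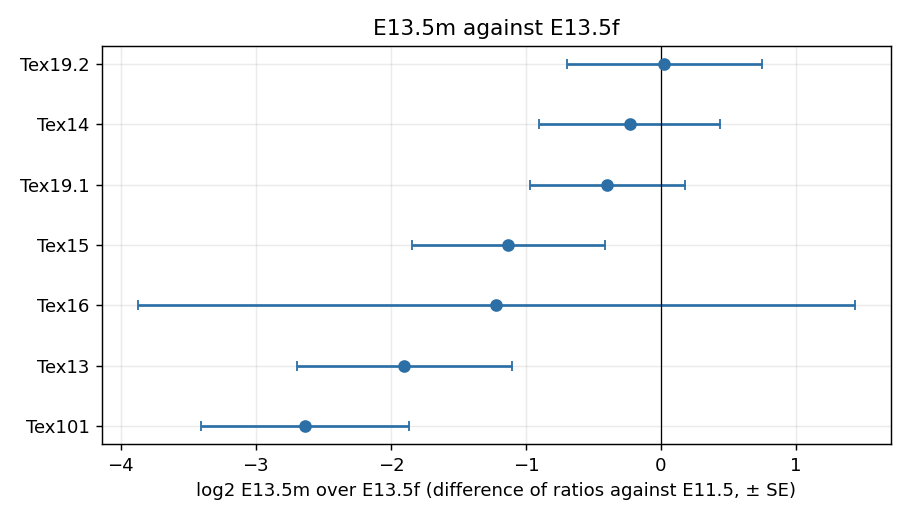
Log2 level in E13.5m over E13.5f (horizontal axis) for the 7 genes with an error, as the difference of their log2 ratios against E11.5, with bars of 1 standard error that counts the error of the shared E11.5 libraries for both tests. Tex101 and Tex13 lie lowest, at -2.63 and -1.90, and Tex19.2 lies at 0.02.

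Loss of Tet1 at E13.5 went with lower levels of Tex101, Tex13, Tex11 and Tex19.2. These 4 of the 8 members fell, where the authors called 5.48% of all genes lower, and the other 4 lay below WT without passing. Unlike the stage tables, this table counts all its 16394 genes as tested, also genes such as Tex13a at 0 FPKM in both groups. The median change of the 8 was -1.36 in log2(FPKM + 1), against -0.21 for all tested genes. Over genes reaching 1 FPKM in both groups the median log2 ratio was -0.38. Tested relative to it, the same 4 members were called, where 1.69% of genes were called lower. Gonadal soma markers, of which this table lists 6, summed to 5.60 FPKM in Tet1-KO and 2.33 FPKM in WT cells. Germ cell markers summed to 2619 FPKM in Tet1-KO and 3876 FPKM in WT cells. The part of either list in these falls was not tested. The WT column was nearly proportional to the E13.5f column: its value was 1.03 to 1.05 times that of E13.5f for each of the 8 genes. Over 10996 genes above 1 FPKM in both columns, the median of E13.5f over WT was 0.962. Most of these ratios lay between 0.946 and 1.03. The WT level and the E13.5f level are therefore not independent readings, and a gene high in one is high in the other. If the E13.5f column was made from the WT libraries, steps from E11.5 or E13.5m to it also run between the labels' library sets. Stage or sex and library set could then not be told apart. The protocols of the library sets state different ranges of cell input.

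Tex13 was lowest in proportion, at 0.556 FPKM in Tet1-KO cells and 48.8 FPKM in WT cells. That is 1.14% of the WT level and a log2 ratio of -6.46 ± 0.95, with an adjusted p of 4.55e-09 in the authors' deposited table. Share and ratio rest on a low Tet1-KO level, and the change of Tex13 in log2(FPKM + 1) was -5.00. Tex101 had 29.2 FPKM in Tet1-KO cells and 321 FPKM in WT cells, 9.10% of the WT level. Its log2 ratio was -3.46 ± 0.44, with an adjusted p of 1.90e-12 in the authors' deposited table. Tex11 had 7.42 FPKM in Tet1-KO cells and 27.0 FPKM in WT cells, a log2 ratio of -1.86 ± 0.36 and an adjusted p of 4.81e-05 in the authors' deposited table. Tex19.2 had 14.4 FPKM in Tet1-KO cells and 47.8 FPKM in WT cells, a log2 ratio of -1.73 ± 0.40 and an adjusted p of 0.00118 in the authors' deposited table. The 4 calls fall on chromosomes X, 7 and 11.

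The members that did not pass were also listed lower. Tex19.1 had 485.5 FPKM in Tet1-KO cells and 843 FPKM in WT cells, a log2 ratio of -0.80 ± 0.42, with an adjusted p of 0.255 in the authors' deposited table. Its paralogue Tex19.2 fell, and the difference between the paralogues was not tested. Tex14 had 12.5 and 23.2 FPKM in Tet1-KO and WT cells, a log2 ratio of -0.89 ± 0.36. Tex15 had 5.95 and 12.5 FPKM, a log2 ratio of -1.07 ± 0.38, with an adjusted p of 0.0674 in the authors' deposited table. Tex16 had 0.325 and 1.75 FPKM, a log2 ratio of -2.43 ± 0.97. Among the matched promoters, those of the called genes Tex101, Tex13 and Tex19.2 hold 14, 11 and 2 CpG sites. Those of Tex19.1, Tex14 and Tex16, which were not called, hold 15, 17 and 0. Whether CpG content bears on the calls was not tested.

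**Figure D5:**
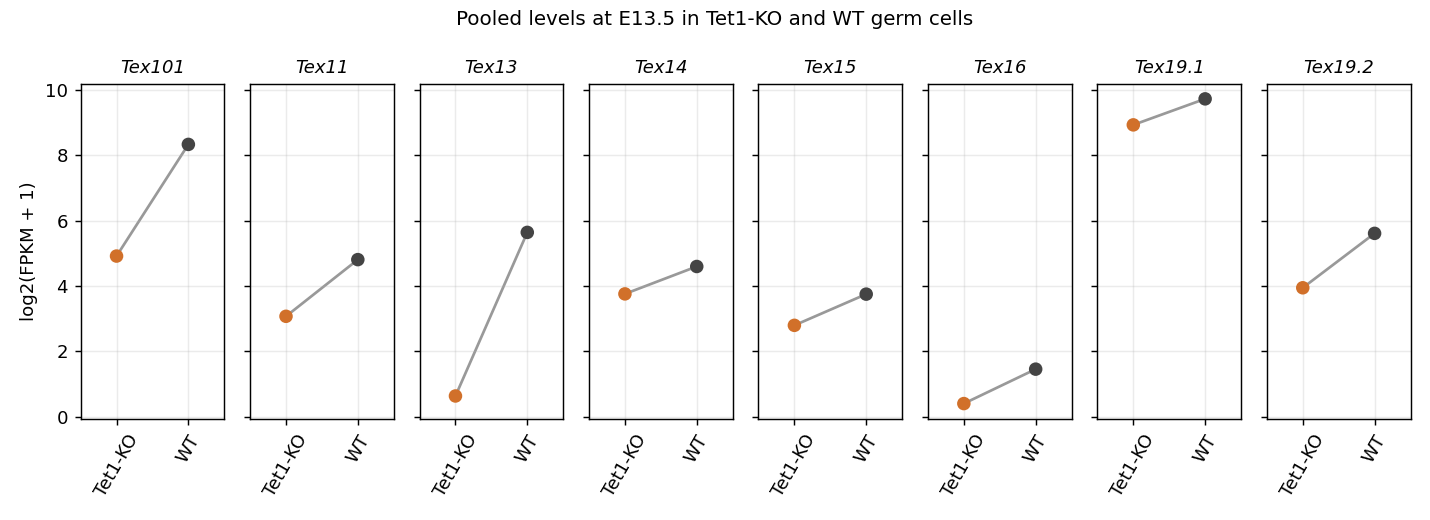
Level of each gene at E13.5 as log2(FPKM + 1) (vertical axis) in Tet1-KO and WT germ cells (horizontal axis), 1 pooled value a point, joined by a line. All 8 lines climb towards WT, and the steepest is that of Tex13, at 0.556 FPKM in Tet1-KO and 48.8 FPKM in WT cells.

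Beside the E11.5 level the Tet1-KO levels took different places. These values come from tables made with different versions of the authors' software and were brought to one scale through the WT and E13.5f columns, so they are a description. Tex13 was at 0.535 FPKM in Tet1-KO cells and 5.63 FPKM at E11.5, and Tex11 at 7.14 and 16.2 FPKM, both below E11.5. Tex101 was at 28.1 FPKM in Tet1-KO cells and 17.2 FPKM at E11.5, and Tex19.2 at 13.9 and 9.08 FPKM. Tex19.1 was at 467 FPKM in Tet1-KO cells and 461 FPKM at E11.5, Tex14 at 12.1 and 9.26 FPKM and Tex15 at 5.73 and 4.39 FPKM. Tex16 was at 0.313 FPKM in Tet1-KO cells and 0.00726 FPKM at E11.5, a value near 0. The summed level of the 7 members other than Tex19.1 was 67.7 FPKM in Tet1-KO cells and 61.7 FPKM at E11.5, against 463 FPKM in WT cells. Tex101 was the largest part of each sum, at 28.1, 17.2 and 308 FPKM. The nearness of the first 2 sums therefore does not hold for each gene.

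Another 11 genes are named Tex and a number. Beside their counts, the authors called 3.71% of all tested genes higher by E11.5, 2.94% in E13.5m and 9.34% in E13.5f. They called 5.48% lower in Tet1-KO. In E13.5f over E11.5, 1 of 7 tested rose: Tex12, a synaptonemal complex gene, at 192 FPKM in E13.5f and 15.3 FPKM at E11.5. In E13.5m over E11.5, 2 of 7 rose, Tex12 at 118 FPKM against 15.6 FPKM and Tex21 at 18.7 FPKM against 5.19 FPKM. In Tet1-KO cells 1 of 8 fell, Tex12 again, at 34.8 FPKM in Tet1-KO and 202 FPKM in WT cells. In E11.5 over E9.5, Cuffdiff called 0 of 7, with 1 at an unadjusted p under 0.05. The broadly expressed Tex261 and Tex264 passed in no table, with Tex264 at 85.3 FPKM in Tet1-KO and 157 FPKM in WT cells. Whether the 8 members differ from these 11 was not tested.

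Genes that work with individual members were counted from fixed lists. For all these lists, the shares of all tested genes called higher were 3.71% by E11.5, 2.94% in E13.5m and 9.34% in E13.5f. In Tet1-KO, 5.48% of all genes were called lower. Of 7 tested crossover genes that act beside Tex11, 4 rose at E13.5f. Sycp2, a chromosome axis gene, was at 7.43 FPKM in E13.5f and 0.804 FPKM at E11.5, and at 0.507 FPKM in Tet1-KO and 7.72 FPKM in WT cells. Msh4, Msh5 and Hfm1 were the other rises, with Hfm1, a crossover helicase, at 5.16 FPKM in E13.5f and 1.65 FPKM at E11.5. Sycp2 fell in Tet1-KO, and so did Nbn, a DNA break repair gene, at 40.7 FPKM in Tet1-KO and 86.1 FPKM in WT cells. In each of the other stage comparisons 1 of 7 rose, Sycp2 in both. By E11.5 Sycp2 rose at a low level, to 0.924 FPKM against 0.00642 FPKM at E9.5, a value near 0.

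Among genes of the Tex15 list, for small-RNA silencing and strand exchange, Mael rose in all 3 stage comparisons. It stood at 442 FPKM in E13.5f and 61.2 FPKM at E11.5, and it was the 1 of 8 tested to fall in Tet1-KO, at 131 FPKM against 463 FPKM in WT cells. Dmc1, the meiotic recombinase gene, rose at E13.5f, at 32.1 FPKM against 5.74 FPKM at E11.5, so that 2 of 6 tested rose there. In each of the other stage comparisons 1 of 7 rose. Piwil2, the Piwi protein gene, had 10.6 FPKM at E11.5 and 2.85 FPKM at E9.5 and did not pass.

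Of the intercellular bridge genes around Tex14, 2 of 9 tested rose by E11.5. Rbm44 had 13.6 FPKM at E11.5 and 0.539 FPKM at E9.5, and Cep55, which Tex14 binds, had 48.1 and 18.5 FPKM. After E11.5 and in Tet1-KO, Cuffdiff called 0 bridge genes, of 8 tested in E13.5m, 8 in E13.5f and 10 in Tet1-KO, with 1, 0 and 3 at an unadjusted p under 0.05. The authors' test of Cep55 failed in both E13.5m and E13.5f. Ubr2, the partner of Tex19.1, rose by E11.5, at 8.03 FPKM against 3.74 FPKM at E9.5, the 1 rise among 7 tested UBR list genes. Ube2a rose at E13.5f, 1 of 4 tested, at 269 FPKM against 114 FPKM at E11.5. Cuffdiff called 0 UBR list genes of 4 tested in E13.5m and 0 of 7 in Tet1-KO, with 0 and 1 at an unadjusted p under 0.05. For Ubr2 the authors' test failed in both E13.5m and E13.5f. In the Adam3 list of Tex101, few genes were expressed enough to test. Ace rose at a low level, to 1.03 FPKM in E13.5m and to 0.481 FPKM in E13.5f, against 0.00596 and 0.00581 FPKM at E11.5 in the same tables. It was 1 of 5 tested in E13.5m and 1 of 4 in E13.5f. Cuffdiff called 0 of 7 in Tet1-KO and 0 of 2 by E11.5, with 1 and 0 at an unadjusted p under 0.05. Ly6k, which binds Tex101, was at 0.746 FPKM in Tet1-KO and 1.60 FPKM in WT cells and did not pass.

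Genes with the most similar profiles were found by Euclidean distance in log2(FPKM + 1) over 6 group columns, among 16221 genes, for the 7 members that reached 5 FPKM. The E13.5f and WT columns are near copies, so they count nearly double, and the distances are a description. Tex101 was nearest to Tex12 (distance 1.74), Rec8 (1.86) and Npepl1 (2.12). Tex13 was nearest to Gm14692 (1.73), Gm6880 (2.00) and Xlr5c (2.10). Tex19.1 was nearest to Fkbp6 (0.76), at 735 FPKM in E13.5f and 425 FPKM at E11.5, then to Ldhb (1.77) and Dppa4 (1.91). Tex19.2 was nearest to Xlr4c (1.14), Xlr4a (1.14) and Hsdl2 (1.26). Tex11 was nearest to Glipr2 (0.97), Fcho1 (1.08) and Triml2 (1.09). Tex14 lay within 0.52 of Caprin2, Trim68 and 3830406C13Rik, and Tex15 within 0.46 of Nrtn, Pbx3 and Klhl15. Xlr genes are a family of near-identical copies, so reads could have been split between their members. Tex101 had nearest neighbours at a greater distance than Tex14 or Tex15.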

How the data were processed

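RNA of isolated germ cells was taken by the authors from 500 to 2000 cells for the Tet1-KO and WT libraries, per the labels' protocols. For the E13.5m, E11.5 and E9.5 libraries the protocols state 400 to 5000 cells. These are stated ranges, and the input of each library is not given. cDNA was amplified (2 to 70 ng) and sheared before sequencing, per the labels' protocols. Per the submitters' processing notes, the tools included TopHat 1.3.1 with Bowtie, and Cufflinks with Cuffdiff (1.0.3 and 1.2.1), on build mm9. The authors deposited FPKM values, 1 pooled value per group, with a test statistic (a score), a p-value and a q-value per gene in the stage tables, and a p-value and an FDR (a score here, since 2182 values exceed 1) in the knockout table, per the file headers.

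Calls are the authors' at 0.05. Log2 ratios were computed again from the FPKM values. Each SE came from dividing the ratio by its deposited test statistic. In the knockout table, which has none, the normal deviate matching the p-value took its place. Changes in log2(FPKM + 1) understate changes of low genes. The SE and centring steps were run on simulated data. Those data were built with the same SEs, so the run could not check the SEs. Loci are given from base 1. Start positions in the tables were read as counted from 0, since 6705 loci then match RefSeq lengths and 449 otherwise. The members and lists were chosen with earlier results of these data known. The named genes were all members, other Tex genes called in a table, up to 4 called genes per list and 3 nearest genes per member. Some partners were named without a call, after their values were seen: Piwil2, Ly6k, Tex261 and Tex264. The lists hold 10 bridge, 10 crossover, 10 Tex15, 7 UBR and 10 Adam3 genes, and genes not matched by symbol or RefSeq synonym were not used. The Tet1-KO count of the crossover list is not reported here. The software was Python 3.11.15 with scipy 1.17.1, pandas 2.3.3, numpy 2.4.6 and matplotlib 3.10.9.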

Additional observations from a re-analysis of the deposited data

How the results depend on the processing

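The settings varied were the threshold (0.01), the adjustment (repeated here), the lowest level (1 FPKM), the smallest log2 change (1), centring on each table's median, the pseudocount (0.1) and the starting level (1 or 10 FPKM). The count of members called stayed within 1.5 times of that reported for E11.5 over E9.5, E13.5f over E11.5 and Tet1-KO over WT under every alternative of the test. In E13.5m over E11.5 it was 1 in place of 2 under the threshold of 0.01, the minimum of 1 FPKM and the minimum log2 change of 1. With a start at 1 FPKM, 4 genes started by E9.5 and 0 did not start. With a start at 10 FPKM, 1 started by E9.5, 2 at E11.5 and 4 at E13.5, all on the common scale. No called change of a member turned its direction under a pseudocount of 0.1 or centring. The change of Tex16 grew most with the pseudocount of 0.1, to 4.06 in E13.5f over E11.5. The E13.5m against E13.5f differences of the 7 genes with an error moved by less than the error given on centring. No paired analysis was possible because the tables hold 1 pooled value per group, and for the same reason leaving out single libraries was not run.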
